A study of Gossypium hirsutum with 24 samples.

Results

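Whole cotton bolls collected after 8 h with a feeding bollworm were set against whole bolls of the same age without one. These bolls gave 6 of the 24 arrays of the series, namely 3 of infested bolls (BS) and 3 of noninfested control bolls (CN). The arrays were assigned to the groups by their labels, and this comparison was chosen with earlier results of these data known. Both groups were Gossypium hirsutum cv. Bikaneri narma grown in the field. For BS, Helicoverpa armigera larvae (of the second instar by the labels) were put on flowers as they opened and the flower was bagged, and the boll collected 8 h later was called 0 dpa (days post anthesis). For CN, flowers of the same age were bagged and collected without a larva. The other 18 arrays of the series hold BS and CN bolls of 2, 5 and 10 dpa, 3 arrays for each group. By the methods, the larva was removed after 5 days, so BS bolls of 10 dpa were collected without one. By the methods, bolls of 5 plants were pooled for each replicate. They place infested and control plants in separate plots, so plot and treatment cannot be told apart. A boll of this age is a whole young fruit, with ovary wall, ovules and remains of the flower, and fewer cells of a type cannot be told apart from less RNA per cell.

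Chewing insects wound plant tissue and leave oral secretions in it. In well studied plants such as Arabidopsis and tobacco relatives, the wound is followed by calcium influx, by activation of mitogen-activated protein (MAP) kinases and by a burst of jasmonate, made from plastid membrane lipids through lipoxygenase, allene oxide synthase and allene oxide cyclase. Ethylene, made from methionine through ACC synthase and ACC oxidase, acts together with jasmonate on the genes of protease inhibitors, chitinases and other proteins that make tissue harder to digest. Auxin, gibberellin and brassinosteroid drive the cell growth that a young fruit depends on.

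Expression values are on the log2 scale and were deposited relative to the median of each probe set over the 24 arrays, so 0 is that median and no value is an abundance. A probe set, a group of short array probes for 1 transcript, was called a differentially expressed transcript (DET) where its fold change was 3 or more and its adjusted p in limma no more than 0.01. At 0 dpa, 1311 of 23977 probe sets were DETs (5.47% of those tested), 1005 of them higher in BS (4.19%) and 306 lower in BS (1.28%). The rises were also larger, since 279 reached a fold of 8, 34 a fold of 32 and 13 a fold of 64, whereas 20 falls reached a fold of 8 and 0 a fold of 32. The median log2 difference was 2.39 over the higher DETs, −1.94 over the lower DETs and −0.08 over all probe sets. The arrays of the groups did not overlap for any of the 1311 DETs, nor for 59.4% of all probe sets. A name was found for 894 of the 1311 DETs in the tables of the study, mostly from the closest Arabidopsis match, and of the 2865 named probe sets 31.2% were DETs, 23.6% higher and 7.64% lower in BS. Of the 2132 probe sets that those tables list for 2, 5 or 10 dpa, 36.6% were DETs at 0 dpa (29.2% higher and 7.41% lower). Those tables list transcripts that the study chose on these arrays, so counts over named genes are not independent evidence of a direction and are read here against these named shares.

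The balance of rises and falls depended on the scale. Transcripts of bacterial origin that are added to every sample in fixed amount were higher in BS on all 3 arrays, by a mean of 0.58 log2 units for the 27 probe sets added at hybridization (bioB, bioC, bioD and cre, between 0.24 and 0.31 in BS and between −0.31 and −0.30 in CN) and by 1.33 for 36 added to the RNA (dap, lys, phe and thr). The 6 trp probe sets differed by −0.15. Centring each array on the hybridization controls moved the median difference of all probe sets to −0.67 and gave 611 higher and 1132 lower DETs (35.1% higher, against 76.7% as deposited). Centring on the poly-A controls gave 381 higher and 4371 lower DETs (8.02% higher), and quantile normalization of the deposited values gave 1144 and 914. Replicates correlated between 0.856 and 0.879 in BS and between 0.951 and 0.960 in CN over all probe sets. Such correlations also depend on the spread over probe sets, with an SD of 0.43 to 0.44 in BS arrays and 0.62 in CN arrays. The deviations of arrays from their group mean had closer SDs, 0.12 to 0.131 in BS and 0.103 to 0.113 in CN. Of the cotton RNA controls, the 3′ probe set of actin was lower in BS by 0.38 and the 5′ one by 0.72, while those of polyubiquitin were higher by 0.86 and 0.32. The part of RNA quality or input in the results below was not tested. Directions below are those of the deposited scale, with the counts after centring on the hybridization controls beside most gene lists.

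The MAP kinase cascade relays wound signals from the membrane to the nucleus, and of its 17 listed probe sets 14 were higher in BS and 0 lower, with a median log2 difference of 2.17. After centring on the hybridization controls 9 were higher and 1 lower, and after centring on the poly-A controls 5 and 1. MPK3, a kinase that wounding activates in Arabidopsis, had values of 0.06, 0.07 and 0.09 in the 3 BS arrays, against −5.05, −4.82 and −5.09 in the 3 CN arrays. The groups did not overlap, and the difference was 5.06 ± 0.068 (SE, n = 3 arrays per group, adjusted p = 4.0e-22). Another 3 probe sets named MPK3 were higher by 4.28, 4.26 and 3.14. MKK9, a kinase that acts upstream of MPK3 and MPK6 in Arabidopsis, had 0.24, 0.42 and 0.23 in BS and −4.54, −4.48 and −4.36 in CN (4.76 ± 0.067, adjusted p = 7.3e-22). At the top of the cascade, MAP3KA was higher by 2.46 ± 0.13. The members that did not pass were MPK4, a negative regulator of immune responses in Arabidopsis (−0.02, 0.02 and −0.10 in BS, against −0.39, −0.22 and 0.37 in CN), 1 probe set of MKK9 and MEK1 (−1.26 ± 0.20). The MPK4 values of BS lay within the range of CN, and its difference was 0.05 ± 0.20.

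Calcium sensors carry the first signal of damage inside the cell. Of 37 listed probe sets 16 were higher and 2 lower (median 1.44, with 11 higher and 3 lower after centring on the hybridization controls and 8 and 6 on the poly-A controls). An EF-hand protein that binds calcium was the most raised, with 1.04, 1.10 and 1.15 in BS, against −2.58, −2.57 and −2.77 in CN (3.74 ± 0.097, adjusted p = 7.9e-18). Calmodulin 2, a calcium sensor, was higher by 3.16 ± 0.082. All 16 raised members lay above all 12 CN arrays of the series, as did 79.4% of all higher DETs and 13.5% of all probe sets. Those 12 arrays include the CN arrays of 0 dpa that defined the rise. Receptor-like kinases, which perceive damage and microbes at the cell surface, had 13 higher and 3 lower of 48 with a median of −0.13. With the hybridization controls as zero, 7 were higher and 12 lower.

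Ethylene synthesis held some of the largest differences at this stage. Of 17 probe sets, 12 were higher and 0 lower (median 3.19), with 11 and 0 once centred on the hybridization controls. The sequences below are the primer pairs that the study designed for quantitative PCR of this and other named transcripts. They are shown to fix which transcript each name stands for, 5′ to 3′, and no base in them is marked.
ACS1 forward: catgaggctctcgtcgtataac
ACS1 reverse: tcatgaagcagacaagtctcaa
WRKY40 forward: aatataccggcggacaaagag
WRKY40 reverse: ccaattcttctgcaatgtcgtatt
Kunitz inhibitor forward: taacaaccggtggagttgaag
Kunitz inhibitor reverse: ggcagtaaacaagcctgtagt
GA2OX8 forward: gccttcccaggtttctactt
GA2OX8 reverse: cgtttagctcttggctgttatg

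ACS1, an ACC synthase and so an enzyme of the step that usually limits ethylene production, had 1.24, 1.34 and 1.38 in BS and −6.86, −6.03 and −6.85 in CN. The BS arrays lay far above the CN arrays, by 7.90 ± 0.15 (a fold of 239, adjusted p = 5.2e-20), and above all 12 CN arrays of the series, of which the highest had −1.24. ACS6, an ACC synthase stabilized by MAP kinases in Arabidopsis, had 1.01, 1.09 and 1.05 in BS, against −3.67, −3.70 and −3.70 in CN (4.74 ± 0.048, adjusted p = 9.3e-24). ACC oxidases, which release ethylene, were higher too, by 4.49 ± 0.12 for the most raised probe set, named ACO1, and by 3.19 ± 0.055 for ACO3. Another 2 probe sets named ACS1 were higher by 3.61 ± 0.11 and 3.14 ± 0.17. Of the 5 probe sets that did not pass, another named ACO1 had −0.74, −0.25 and −0.62 in BS and −0.28, −0.38 and −0.67 in CN, with groups that overlapped. In perception and signalling 4 of 10 probe sets were higher and 0 lower, with 2 and 0 once centred on the hybridization controls. The 4 were 2 probe sets of the receptor EIN4 (2.67 ± 0.064 for the more raised), the F-box protein EBF2, which removes the transcription factor EIN3 (2.58 ± 0.072), and EIN3a (1.60 ± 0.068), so members with positive and with negative roles in the pathway were among them. The calls of EIN3a and of the less raised EIN4 probe set were lost without CN replicate 1 or BS replicate 1 (1.58 for each), that of EIN4 also without CN replicate 2 or BS replicate 3, and without CN replicate 1 the list had 2 higher. On the poly-A controls it had 0.

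**Figure D1:**
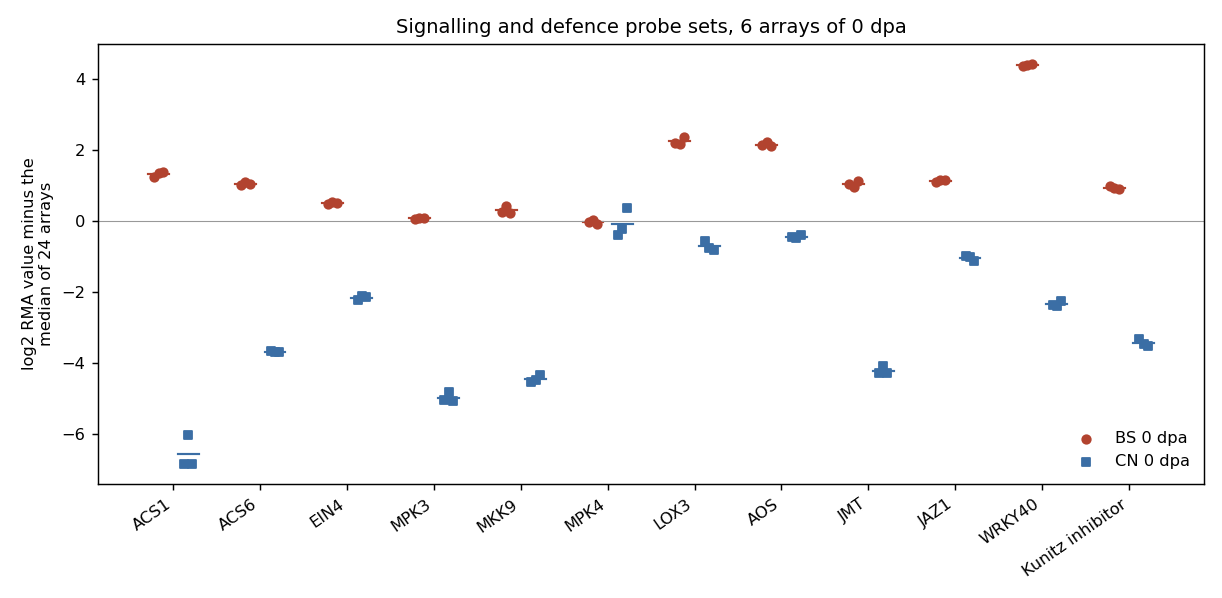
Log2 values relative to the median of the 24 arrays (vertical axis) for 12 probe sets of signalling, hormone and defence genes in the 3 BS arrays (circles) and the 3 CN arrays (squares) of 0 dpa, with bars at the group means. The groups stand apart for 11 of the 12, most of all for ACS1, and overlap for MPK4.

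Jasmonate synthesis had raised members from the lipoxygenases that begin it to an acyl-CoA oxidase of its last steps. Of 24 probe sets 14 were higher and 0 lower (median 1.87), with 9 and 2 once centred on the hybridization controls and 4 and 2 on the poly-A controls. LOX3, a 13-lipoxygenase that starts the pathway, had 2.21, 2.16 and 2.36 in BS, against −0.58, −0.76 and −0.82 in CN (2.96 ± 0.15, adjusted p = 6.7e-13). AOS, allene oxide synthase, had 2.14, 2.22 and 2.11 in BS and −0.45, −0.48 and −0.40 in CN (2.60 ± 0.061, adjusted p = 1.3e-18). In both genes every BS array was above every CN array. Further along, AOC1, allene oxide cyclase, was higher by 1.90 ± 0.06, OPR3, the reductase of the next step, by 1.71 ± 0.059, and ACX2, an acyl-CoA oxidase of the last steps, by 2.17 ± 0.065. PLP2, a phospholipase that frees fatty acids from membrane lipids, was higher by 3.40 ± 0.12, and outside this list FAD8, a plastid desaturase that makes the linolenic acid precursor, was higher by 3.24 ± 0.049. Probe sets of 1 name did not always move together, since 2 named AOS had differences of −1.06 and −1.23, below the fold threshold, and ACX3 had 0.12 ± 0.11. The AOC1 and OPR3 calls and those of 3 further AOS probe sets were lost after centring on the hybridization controls. On the poly-A controls those of ACX2 (1.05) and of the AOS probe set with 2.60 (1.48) were lost too.

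JMT, which turns jasmonic acid into its volatile methyl ester, was the most raised gene of jasmonate signalling and conjugation. It had 1.05, 0.95 and 1.13 in BS, against −4.28, −4.09 and −4.30 in CN (5.26 ± 0.068, a fold of 38.4, adjusted p = 3.3e-22). JAZ proteins repress jasmonate responses and are themselves induced by the hormone. Of these, the most raised JAZ1 probe set had 1.11, 1.15 and 1.15 in BS and −0.98, −1.02 and −1.12 in CN (2.18 ± 0.096), while a JAZ2 probe set differed by −0.03 ± 0.059 with overlapping arrays and JAZ9 by −1.02 ± 0.086. Another probe set named JAZ1 differed by −0.83, and others named JAZ2 and JAZ3 by 1.33 and 1.39, none of them past the fold threshold. Of the 8 probe sets of this list JMT and the most raised of JAZ1 were the DETs (25.0%, near the share of named probe sets that were higher). The list had 2 higher and 1 lower after centring on the hybridization controls, and 1 higher and 2 lower on the poly-A controls. CYP94C1, a cytochrome P450 that oxidizes the active jasmonate in Arabidopsis, was higher by 2.99 ± 0.15.

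The salicylate list was short, with 4 probe sets of 3 genes, all of them higher (median 2.29). After centring on the hybridization controls 2 were higher, and on the poly-A controls 0. In the wider hormone table of the study, 57 of 147 probe sets for salicylic acid were higher and 8 lower (38.8% and 5.44%). For jasmonic acid these were 35 and 5 of 102 (34.3% and 4.9%). Shares higher ran from 21.1% for auxin to the 38.8% of salicylic acid. PAD4 and SAG101 encode lipase-like proteins that work with EDS1 in salicylate immunity in Arabidopsis. PAD4 had 0.50, 0.76 and 0.69 in BS, against −1.71, −1.73 and −1.97 in CN (2.45 ± 0.091). SAG101 had 1.67, 1.69 and 1.63 in BS and −0.69, −0.70 and −0.85 in CN (2.41 ± 0.078), and it was no DET at 2, 5 or 10 dpa. DMR6, which breaks down salicylate in Arabidopsis, was higher by 1.59, and without 1 array of either group (BS replicate 1 or CN replicate 1) it fell below the fold threshold, at 1.58 and 1.47. In the abscisic acid list 9 of 33 were higher (27.3%, near the share of named probe sets) and 0 lower. After centring on the hybridization controls 9 were higher and 1 lower, and on the poly-A controls 3 and 4. Of the 9 higher as deposited, 5 were protein phosphatases 2C, which restrain the abscisic acid signal, for example 1 with a difference of 2.53 ± 0.07.

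**Figure D2:**
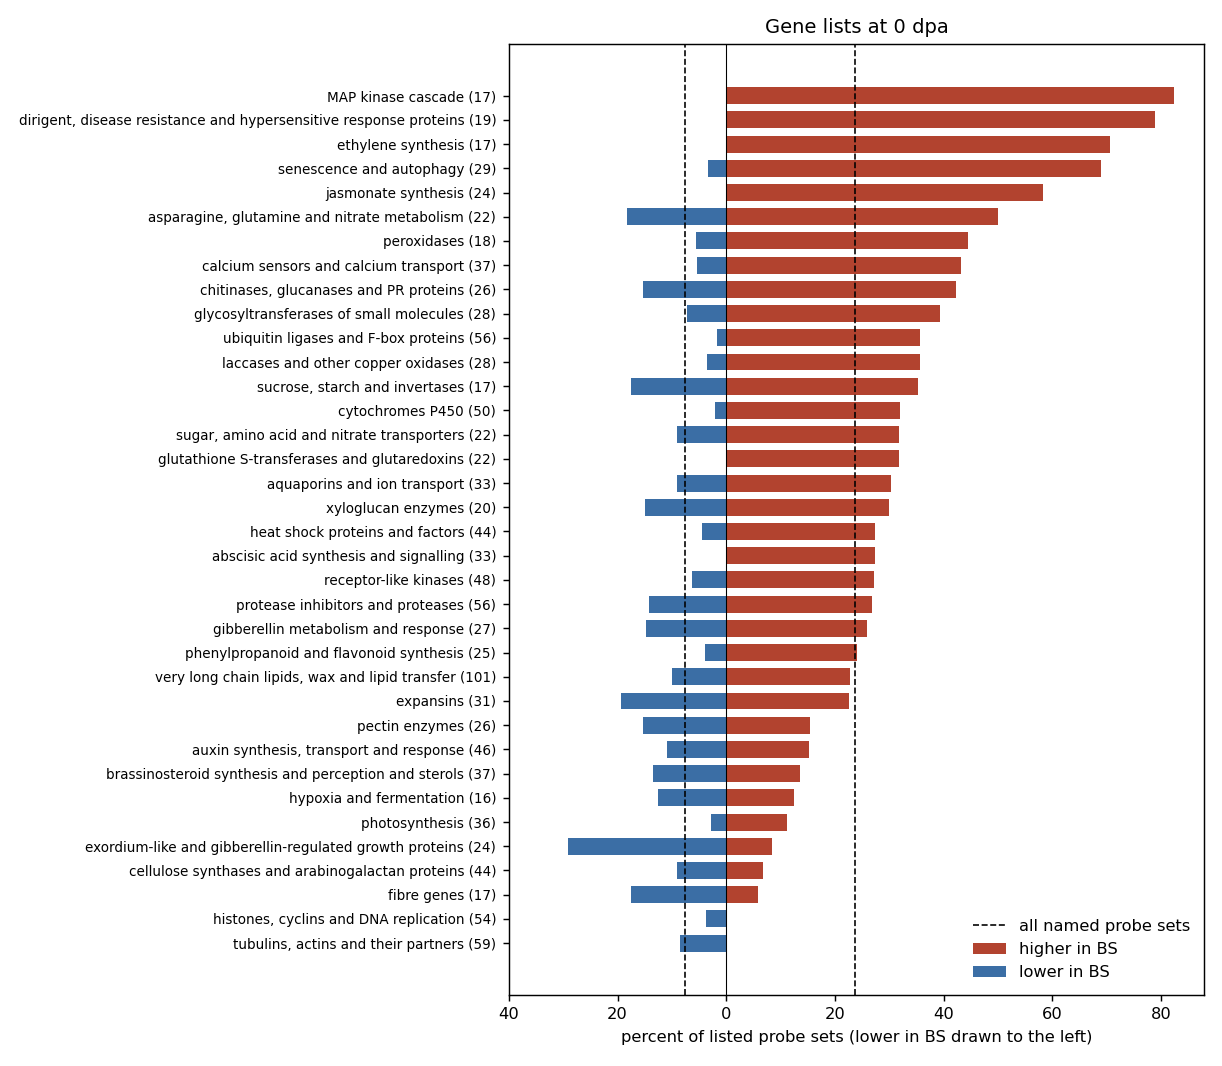
Percent of the probe sets of each gene list (number in parentheses, lists of at least 15) that were higher in BS (right) and lower in BS (left) at 0 dpa, with dashed lines at the shares over all 2865 named probe sets, 23.6% and 7.64%. The MAP kinase cascade, with 14 of 17 higher, stands at the top, and histones and tubulins at the bottom have none higher.

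Transcription factors differed between families. Over the 523 probe sets that the study listed as transcription factors, 133 were higher and 39 lower (25.4% and 7.46%, near the shares of named probe sets). The family listed as WRKY, after the factors that bind the W-box of defence genes, had 34 of 69 higher and 0 lower. It held kinases too, since 35 of the 69 probe sets were named WRKY (22 higher, 0 lower) and 22 were named as kinases (11 higher, 0 lower), MPK3 and MKK9 among them. AP2-EREBP factors, which include the ethylene response factors, had 24 of 47 higher and 0 lower, and NAC factors 9 of 23 and 0. On the scale of the hybridization controls these 3 families had 25, 17 and 7 higher and 2, 0 and 0 lower. On that of the poly-A controls they had 15, 13 and 4 higher and 7, 2 and 2 lower. Shares as high were found in small families, with 4 of 6 higher in PLATZ and 3 of 6 in BES1. WRKY40, an early wound and immune gene of Arabidopsis, had 4.37, 4.41 and 4.43 in BS, against −2.38, −2.41 and −2.25 in CN. The difference of 6.75 ± 0.12 (a fold of 108, adjusted p = 1.3e-20) was accompanied by 6.01 at 2 dpa. ANAC047, a NAC factor of senescence and stress, had −0.09, 0.02 and −0.07 in BS and −6.18, −6.70 and −6.38 in CN (6.37 ± 0.12). STZ, a zinc finger repressor of stress genes, was higher by 4.51 ± 0.074 and MYB74 by 4.77 ± 0.13.

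Of the 18 probe sets that the study listed as AUX/IAA, the repressors of auxin response, 0 were higher and 5 lower (median −1.06, with 0 and 9 once centred on the hybridization controls). Most of these falls lay near the fold threshold, since 2 were called after centring arrays on their medians, 3 without CN replicate 1 or CN replicate 3 and 2 without BS replicate 1. ATAUX2-11, named as an indoleacetic acid-induced protein and not in that list, was higher by 2.60 ± 0.16. All 3 listed probe sets of the YABBY family, which sets the outer side of floral organs and carpels, were lower in BS. The 3 of the zinc finger homeodomain family were lower too, but the study listed only 1 of them for a later stage. The others were listed through 0 dpa itself, so their falls are no separate result about that family. CRABS CLAW, a YABBY factor of the carpel and nectary, had −0.15, −0.11 and 0.04 in BS and 1.90, 2.12 and 2.06 in CN (−2.10 ± 0.075, adjusted p = 1.3e-15). AFO, the YABBY factor FILAMENTOUS FLOWER, fell by 2.59 ± 0.13 on the log2 scale and SCR, a GRAS factor of root and leaf patterning, by 2.58 ± 0.13. MYB21, which promotes petal, stamen and nectary maturation in Arabidopsis flowers, had 3.18, 3.32 and 3.41 in BS, against 6.39, 6.56 and 6.31 in CN (−3.12 ± 0.10, adjusted p = 2.5e-16). Both groups of 0 dpa were nonetheless higher in MYB21 than the means of all later groups, which ran between −1.44 and 1.18, so BS lay between CN of the same age and the bolls of every later stage.

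**Figure D3:**
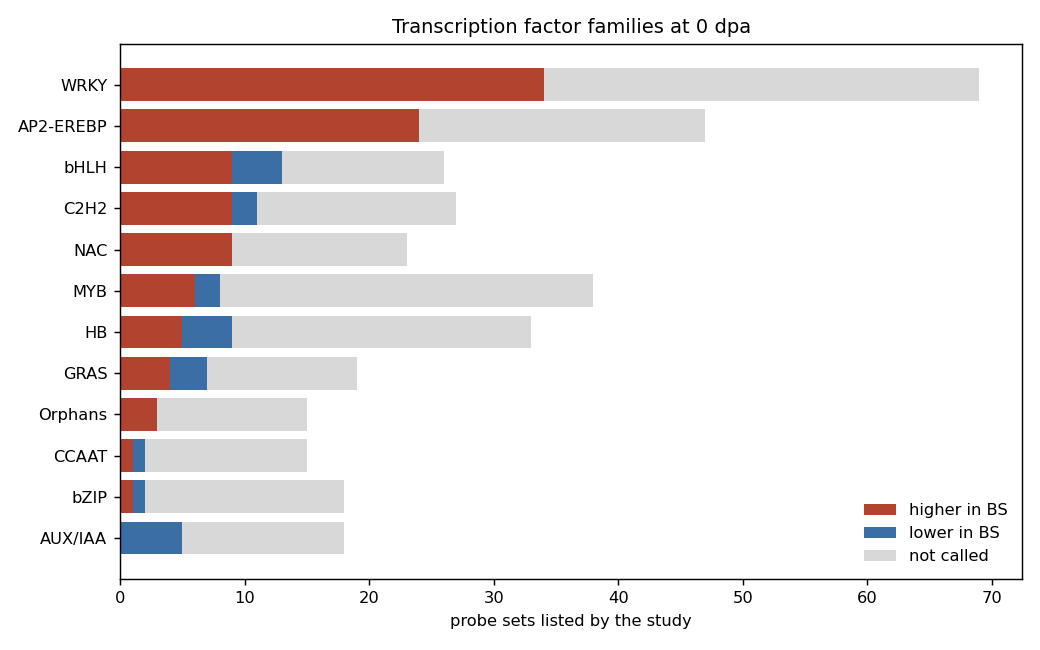
Number of probe sets in each transcription factor family listed by the study (families of at least 15) that were higher in BS, lower in BS or not called at 0 dpa. The family listed as WRKY, which includes 22 kinases, has 34 of 69 higher and AP2-EREBP 24 of 47, each with none lower, whereas AUX/IAA has 5 of 18 lower (2 after centring arrays on their medians) and none higher.

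Direct defence proteins differed between lists. Dirigent, disease resistance and hypersensitive response proteins had 15 of 19 probe sets higher and 0 lower (median 2.25). With the hybridization controls as zero these were 11 and 0, and on the poly-A controls 7 and 1. Among chitinases, glucanases and other pathogenesis-related proteins 11 of 26 were higher and 4 lower (9 and 7 after centring on the hybridization controls, 8 and 9 on the poly-A controls). The chitinase ATEP3, an enzyme that cuts chitin, had 3.07, 3.06 and 3.16 in BS and −2.05, −2.07 and −2.36 in CN (5.26 ± 0.12, adjusted p = 1.2e-18). An osmotin-like protein, of a family that permeabilizes fungal membranes, had −0.28, −0.33 and −0.30 in BS, against −6.73, −5.88 and −6.54 in CN (6.08 ± 0.15). The 4 that were lower were 2 probe sets of the thaumatin-like protein ATLP-1 (−1.89 for the more lowered), a major latex protein and a Bet v I allergen family protein. Proteases and their inhibitors moved in both directions, with 15 of 56 higher (26.8%, near the share of named probe sets) and 8 lower. Once centred on the hybridization controls 9 were higher and 15 lower. The Kunitz trypsin inhibitor, of a class that blocks the digestive enzymes of caterpillars, had 1.00, 0.92 and 0.91 in BS, against −3.32, −3.46 and −3.54 in CN (4.39 ± 0.094, a fold of 20.9, adjusted p = 3.2e-19). The 8 lowered members held 2 cysteine proteinase probe sets (−2.19 ± 0.057 for the more lowered) and 4 subtilases, which are proteases of the cell wall space. In terpene synthesis, the route to gossypol and volatiles, terpene synthase 8 was higher by 3.41 ± 0.13 and TPS10 by 2.01 ± 0.20, and a cytochrome P450 of the CYP706 family was lower (−1.59), out of 7 probe sets. After centring on the hybridization controls 1 was higher and 2 lower, with TPS10 at 1.43, and the CYP706 call was lost without CN replicate 1 (−1.57) or BS replicate 3 (−1.58) and after centring arrays on their medians (−1.54).

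Peroxidases, which cross-link walls and turn over hydrogen peroxide, had 8 of 18 higher and 1 lower (5 and 4 after centring on the hybridization controls, 5 and 7 on the poly-A controls). POD9, a class III peroxidase, had 2.11, 2.25 and 2.09 in BS, against values between −6.65 and −6.37 in the 3 CN arrays (8.66 ± 0.12), and a putative peroxidase had 4.31, 4.43 and 4.49 in BS and −1.34, −1.38 and −1.24 in CN (5.73 ± 0.081). OMT1, an O-methyltransferase of lignin and flavonoid synthesis in Arabidopsis, had 0.78, 0.88 and 0.91 in BS, against −5.77, −5.20 and −5.73 in CN (6.43 ± 0.11), the largest rise of its list, in which 6 of 25 were higher and 1 lower with a median of −0.69. After centring on the hybridization controls that list had 5 higher and 6 lower. AOX1D, an alternative oxidase of the alternative respiratory pathway of mitochondria, was higher by 4.86 ± 0.15, and FER4, a ferritin that stores iron, by 4.37 ± 0.052. The haemoglobins went apart, AHB1, which is induced by low oxygen and scavenges nitric oxide, with a difference of 3.45 ± 0.13 and AHB2 with one of −3.34 ± 0.12.

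Lists of osmoprotectants and ageing had most of their members raised at 8 h, and that of nitrogen moved in both directions. In trehalose and galactinol synthesis 10 of 13 were higher and 0 lower (7 and 1 after centring on the hybridization controls). A trehalose-6-phosphate phosphatase was higher by 4.38 ± 0.069. P5CS2, the key enzyme of proline synthesis, had −0.53, −0.72 and −0.56 in BS and −4.53, −4.77 and −4.84 in CN (4.11 ± 0.10). NIA1, nitrate reductase, was higher by 2.63 ± 0.13. Both belong to the list of asparagine, glutamine and nitrate metabolism, with 11 of 22 higher and 4 lower (9 and 6 after centring on the hybridization controls, 4 and 6 on the poly-A controls), and with 5 of 15 higher and 3 lower when the ASN1 probe sets were left out. Of 29 probe sets of senescence and autophagy 20 were higher and 1 lower (15 and 2 after centring on the hybridization controls). This list shares its 7 ASN1 probe sets with the nitrogen list. ASN1, an asparagine synthetase induced by darkness and sugar shortage, counted 6 probe sets higher, up to 6.03 ± 0.16, and 1 lower (−2.22, singled out after its values were seen). Of the 44 heat shock probe sets 12 were higher (27.3%, near the share of named probe sets) and 2 lower. After centring on the hybridization controls these were 7 and 6, and on the poly-A controls 3 and 16. The small heat shock protein HSP17.8 led them with 4.10 ± 0.089.

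Growth hormone genes were divided. GH3.3, which conjugates auxin to amino acids, had 0.05, −0.03 and 0.05 in BS, against −6.40, −6.06 and −6.32 in CN (6.28 ± 0.097, adjusted p = 2.9e-21), and GH3.1 was higher by 2.30. A SAUR auxin-response protein had −2.74, −2.69 and −2.78 in BS and 0.86, 0.69 and 0.74 in CN (−3.50 ± 0.16). The auxin list as a whole had 7 of 46 higher and 5 lower (3 lower without CN replicate 1 and after centring arrays on their medians), and the larger count changed side with the scale (6 and 15 on the hybridization controls, 8 and 14 after quantile normalization). Of 27 probe sets of gibberellin metabolism and response 7 were higher and 4 lower, with 3 and 9 once centred on the hybridization controls. GA2OX1 and GA2OX8 encode gibberellin 2-oxidases, which inactivate gibberellin. GA2OX1 had 2.95, 2.89 and 2.92 in BS, against −1.52, −1.42 and −2.19 in CN (4.63 ± 0.15), and GA2OX8 had 0.61, 0.74 and 0.73 in BS, against −3.70, −3.84 and −3.41 in CN (4.34 ± 0.13). Neither gene had overlapping arrays. A gibberellin-regulated protein fell by 3.53 ± 0.10, while GASA1 of the same wider family was higher by 4.15 ± 0.14.

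Lists of the cell wall and growth were mixed. Tubulins, actins and their partners, the cytoskeleton of growing cells, had 0 of 59 higher and 5 lower (median −0.77), all 5 tubulins, with BTub1 at −0.03, −0.11 and 0.15 in BS and 3.71, 3.01 and 3.25 in CN (−3.32 ± 0.14). Histones, cyclins and DNA replication genes had 0 of 54 higher and 2 lower (median −0.90), both CYCD3;1, a cyclin that drives entry into the cell cycle (−1.91 ± 0.16 for the more lowered). After centring on the hybridization controls 22 of each list were lower and 0 higher. Xyloglucan enzymes, which cut and rejoin a wall polymer, had 6 of 20 higher and 3 lower (4 and 7 after centring on the hybridization controls). Expansins, which loosen the wall, went in both directions, with 7 of 31 higher and 6 lower and, after centring on the hybridization controls, 5 and 12. EXPA3 was higher by 3.01 ± 0.051 and EXPA8 by 2.89 ± 0.056, while EXPA10 had −2.57 ± 0.065 and EXPA15 −1.92 ± 0.10. A polygalacturonase, a pectin-degrading enzyme, fell by 3.33 ± 0.16, and another, QRT2, of the enzymes that part cells, was higher by 4.89 ± 0.098. Of the 36 photosynthesis probe sets 4 were higher and 1 lower (2 and 4 after centring on the hybridization controls).

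Of the markers of tissues that a boll can hold, fibre genes had 1 of 17 higher and 3 lower (median −1.0, with 1 and 8 once centred on the hybridization controls), flower and ovule identity genes 0 of 8 and 3 (median −1.07, with 0 and 5), late embryogenesis and seed storage genes 2 of 6 and 0, and pollen and anther genes 1 of 2 and 0, the 1 being QRT2, and for these last lists the counts were the same on that scale. The values carry no level, so whether a marker was present could not be read from them. The part of tissue composition in the differences was not tested.

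The rises were then set against uninfested bolls of every age. Of the 1005 higher DETs, 798 (79.4%) had all 3 BS arrays above all 12 CN arrays of the series (13.5% over all probe sets), and 207 did not. Of the 306 lower DETs, 212 (69.3%) had all BS arrays below all 12 CN arrays (16.5% over all probe sets). On the deposited scale most rises at 8 h thus lay above the arrays of uninfested bolls between 0 and 10 dpa. Each DET was chosen by its distance from the CN arrays of 0 dpa, so the shares over all probe sets are no fair base for the DETs. For 309 of the higher DETs the CN mean of 0 dpa was the lowest of all 8 group means, and for 165 the BS mean of 0 dpa was the highest. GH3.3, ASN1, the osmotin-like protein and P5CS2 were among those that did not pass all CN arrays.

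At 2 dpa, likewise in whole bolls and on other arrays, 506 of the 1005 rises were again higher in BS (50.3% of the 0 dpa list and 63.2% of the 801 rises at 2 dpa), and 168 of the 306 falls were again lower (54.9% of them and 15.7% of the 1070 falls at 2 dpa). Over all probe sets, 3.34% were higher and 4.46% lower at 2 dpa. Tested as an interaction in limma with the same thresholds, the BS minus CN difference was above that of 2 dpa for 858 probe sets (3.58%) and below it for 164 (0.684%). Of the 1005 rises, 289 had the larger difference at 0 dpa and 18 the smaller. Over these 289, which the test chose, CN at 2 dpa lay above CN at 0 dpa in 287, by a median of 2.66, while BS at 2 dpa lay above BS at 0 dpa by a median of 0.22. Over all 1005 rises, CN at 2 dpa lay above CN at 0 dpa in 857, by a median of 1.12, and over all 23977 probe sets in 9746. Both the call at 0 dpa and the interaction test favour low CN values at 0 dpa, so the 287 are no independent result. Within these 289, it was mostly the uninfested bolls that differed between the stages.

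EXLB1, an expansin-like protein, showed this in full. Its BS means were 0.72, 0.82, 0.59 and −0.41 at 0, 2, 5 and 10 dpa, against CN means of −7.98, 0.48, −8.19 and −8.19, so the BS minus CN difference was 8.69 at 0 dpa and 0.34 at 2 dpa (interaction 8.35, adjusted p = 7.1e-18). ASN1 had BS means of −0.41, 0.39, 0.61 and 0.71 and CN means of −6.44, 0.72, −8.03 and −7.71 (interaction with 2 dpa 6.36). MPK3 had BS means of 0.07, 0.82, 0.87 and 1.76 and CN means of −4.99, −0.12, −4.66 and −4.48 (interaction 4.12). In all 3 genes CN bolls of 2 dpa were near the infested ones, and CN bolls of the other stages were far below. WRKY40 did not share the pattern, with CN means of −2.35, −1.68, −1.86 and −2.27.

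**Figure D4:**
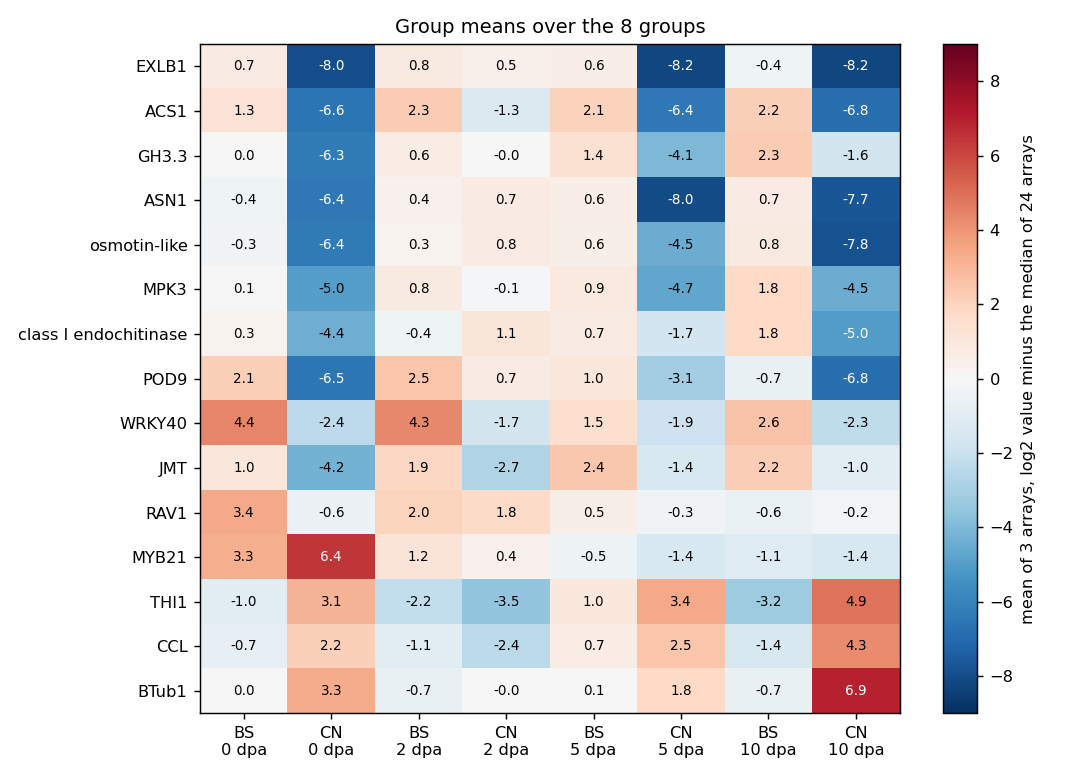
Mean log2 value of 3 arrays, relative to the median of the 24 arrays, in the 8 groups (BS left of CN within each stage, stages from 0 to 10 dpa) for 15 probe sets. EXLB1, ASN1, MPK3 and others are low in CN at 0, 5 and 10 dpa and near 0 in CN at 2 dpa, whereas WRKY40 is low in all CN groups.

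Some changes were not called in the same direction at any other stage, 128 of the rises and 62 of the falls, of which 24 and 6 were called in the opposite direction at 1 later stage or more, beside 348 rises and 76 falls that were called at all 4 stages. RAV1, an AP2 and B3 domain factor that wounding and ethylene can induce, had 3.26, 3.55 and 3.53 in BS and −0.52, −0.31 and −0.82 in CN (3.99 ± 0.17, against 0.21 at 2 dpa, interaction 3.78, adjusted p = 4.9e-11). The next genes were named after their values were seen. WRKY70, which favours salicylate over jasmonate responses in Arabidopsis, had −0.18, −0.20 and −0.28 in BS, against −2.79, −2.89 and −3.15 in CN (2.72 ± 0.077), and it was a lower DET at 2 dpa (−1.80, interaction 4.51). Another probe set named WRKY70 was higher by 2.47 ± 0.16 at 0 dpa and had −1.05 at 2 dpa, which did not reach the fold threshold. Among the falls, MIF2, a mini zinc finger protein, had 0.77, 0.68 and 0.89 in BS, against 3.72, 3.67 and 3.65 in CN (−2.89 ± 0.07, and −0.01 at 2 dpa). CKX3, which degrades cytokinin, fell by 2.76 ± 0.12 and the meristem homeobox gene KNAT6 by 2.17 ± 0.13, with 2 dpa differences of −0.14 and 0.26.

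**Figure D5:**
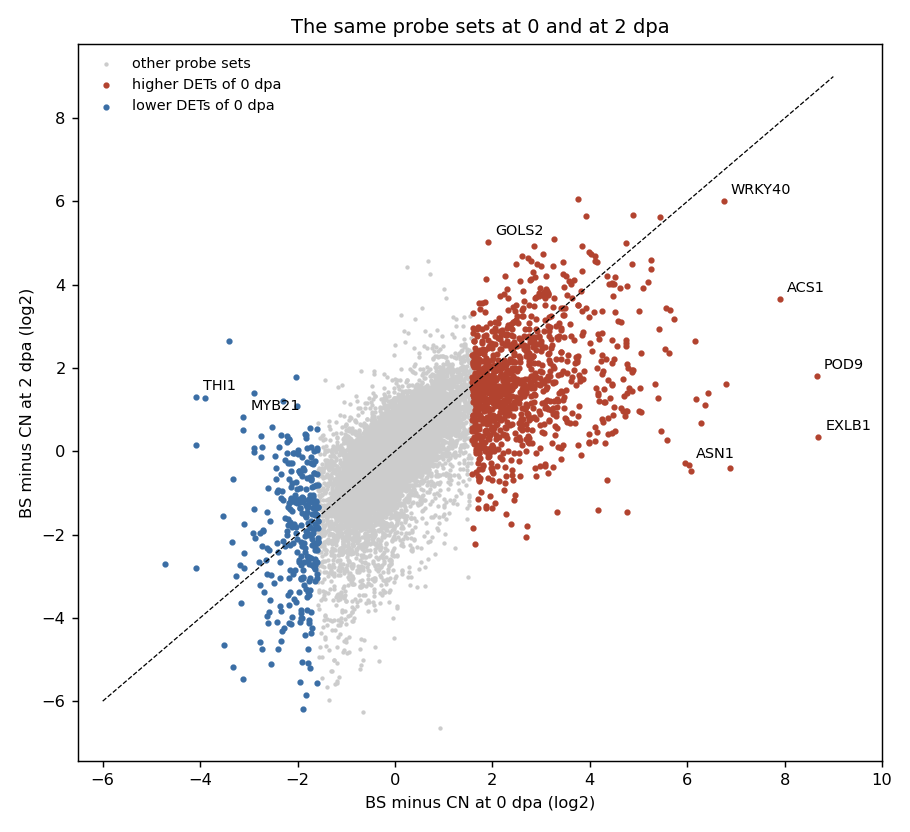
BS minus CN on the log2 scale at 0 dpa (horizontal) and at 2 dpa (vertical) for 23977 probe sets, with the 1005 higher and 306 lower DETs of 0 dpa in colour and a dashed line of equality. EXLB1, POD9 and ASN1 lie far to the right at low values of 2 dpa, and WRKY40 lies near the line.

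Not all early changes were stronger than later ones. AOS had a difference of 4.68 at 2 dpa, above the 2.60 at 0 dpa (interaction −2.08, adjusted p = 5.6e-14), and GOLS2, a galactinol synthase, one of 5.03, above 1.91 (interaction −3.12, adjusted p = 2.3e-13). The most raised JAZ1 probe set differed by 2.18, 2.46, 3.86 and 5.95 at 0, 2, 5 and 10 dpa, and its values at 0 and 2 dpa did not differ beyond their error (interaction −0.28, adjusted p = 1.0e-01). At 5 and 10 dpa the infested portion of the boll was sampled instead of the whole boll, and the larva had been removed before the 10 dpa bolls were collected. Of the 1005 rises, 714 were again higher in BS at 5 dpa (6.39% of all probe sets) and 725 at 10 dpa (8.97%), and of the 306 falls, 105 were again lower at 5 dpa (2.46%) and 225 at 10 dpa (11.5%). The difference at 0 dpa was above that of 5 dpa for 382 probe sets (1.59%) and below it for 625 (2.61%), and above that of 10 dpa for 2092 (8.73%) and below it for 1258 (5.25%).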

How the data were processed

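Arrays were processed by the authors with RMA (background correction, quantile normalization, median polish) in GeneSpring GX, and the deposited table holds the resulting log2 values. Every row of that table, 24132 in all, was found to be centred, its median across 24 arrays lying less than 1e-04 from 0. Levels are lost by this, and dim probe sets could not be filtered. Tests left out 103 AFFX and 52 RPTR rows, which are controls and reporters.

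A model of 8 group means was fitted to all 24 arrays with limma 3.58.1 in R 4.3.3 (16 residual and 3.53 prior degrees of freedom), with Benjamini-Hochberg adjustment over 23977 probe sets, and differences between stages were tested as interactions. Thresholds are those of the methods, which used an unpaired t-test. Precision is limited by 3 arrays per group. On simulated data for this comparison (23977 probe sets, 200 changed), log2 changes of 2, 3 and 4 were called in 100% of cases, with 0 false calls. Those of 1 lie below the fold threshold of 3 and were called in 0%. The simulated noise was independent between arrays and held no shift of whole arrays, so false calls from such shifts were not tested.

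Names and transcription factor families come from the tables of the study. Gene lists are word patterns on those names, and counts are of probe sets, so that a gene can count more than once. The lists and the bolls described were chosen with earlier results of these data known. Named were, of the DETs with a name and groups that do not overlap, the 15 largest rises and 10 largest falls, the 3 most changed in each direction in each list, every member of the jasmonate, ethylene, salicylate and MAP kinase lists, the most changed of each larger transcription factor family, and the 5 largest differences from 2 dpa in each direction. Not all are printed. No genome was used, so no positions are given. Alternatives covered the test, arrays, pairing, scaling, thresholds, ambiguous probe sets and each array left out. Figures were drawn with matplotlib.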

Additional observations from a re-analysis of the deposited data

Results flagged for a closer look

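The BS minus CN difference at 0 dpa was above that of 2, 5 and 10 dpa for 858, 382 and 2092 probe sets and below it for 164, 625 and 1258, each tested as an interaction in limma over all probe sets. The 5 dpa and 10 dpa bolls were sampled as infested portions, so tissue and stage changed together in those comparisons. The larva had also been removed before the 10 dpa bolls were collected. Of the 1005 rises at 0 dpa, 134 lay above and 150 below the difference of 5 dpa, and 180 above and 279 below that of 10 dpa.

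The named DETs whose difference exceeded that of 2 dpa most were EXLB1 (8.35), POD9, a class III peroxidase (6.85), the osmotin-like protein (6.55), ASN1 (6.36) and a class I endochitinase (6.22). In all 5 the CN mean of 2 dpa lay between 0.48 and 1.06, and that of 0 dpa between −7.98 and −4.42. In the other direction they were THI1, an enzyme of thiamine synthesis (−5.40), CCL (−4.28), MYB21 (−3.94), GOLS2 (−3.12) and a lipid transfer protein (−3.12). THI1 had CN means of 3.09, −3.53, 3.42 and 4.91 at 0, 2, 5 and 10 dpa, and CCL of 2.16, −2.44, 2.52 and 4.28.

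Control transcripts outside the comparison also differed, since the bioB, bioC, bioD and cre probe sets were higher in BS by a mean of 0.58 and those of dap, lys, phe and thr by 1.33, with groups that did not overlap in any of the 27 and 36 probe sets.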

How the results depend on the processing

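The counts of DETs (1311, with 1005 higher and 306 lower in BS, 76.7% higher) changed with the scaling and the fold threshold. Quantile normalization gave 2058 DETs (914 lower). Centring on the hybridization controls gave 611 higher and 1132 lower (35.1% higher), and centring on the poly-A controls gave 4752 in all, 381 higher and 4371 lower (8.02% higher). With these, 1266, 917 and 687 of the 1311 DETs kept their call and direction. The difference at 0 dpa was below that of 2 dpa for 573 probe sets after quantile normalization, 96 on the hybridization controls and 46 on the poly-A controls, and above it for 1953 on the poly-A controls. Against 5 dpa it was above for 774 after quantile normalization and 1154 on the poly-A controls, and below for 261 on the poly-A controls. Against 10 dpa quantile normalization gave 962 above and 634 below. Without probe sets whose suffix marks possible cross-hybridization there were 703 DETs (580 higher, 123 lower). A fold of 2 gave 2853 (1711 and 1142), no fold threshold 10736 (4427 and 6309, 41.2% higher), and a test against a fold of 3 gave 835 (130 lower). The cause of these shifts was not tested, except that fewer probe sets or another threshold changes a count by construction.

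Leaving out each array in turn gave 1302 to 1325 DETs, 994 to 1011 higher and 297 to 314 lower (76.0% to 77.2% higher). The difference was then above that of 2 dpa for 849 to 866 and below it for 161 to 169, above that of 5 dpa for 374 to 393 and below for 616 to 639, and above that of 10 dpa for 2093 to 2119 and below for 1262 to 1295. The replicate numbers did not pair the arrays (correlations of the deviations of same-numbered arrays 0.019, 0.022 and 0.108), and the fit with the replicate number as a block gave 1311 DETs. Of 254 named probe sets none that was called changed sign, while of those not called 12 changed sign on the poly-A controls, 4 on the hybridization controls (MPK4 at −0.53 and ACX3 at −0.47 among them) and 3 after quantile normalization, and 49 lost their call on the poly-A controls, 22 on the hybridization controls and 2 after quantile normalization. The t-test of the methods gave 1303 DETs. Depth has no meaning for arrays, and with row medians removed no signal over background could be read.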

Other observations

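Sterol and starch genes were among those lowered. SMT2-2, a sterol methyltransferase of membrane sterol synthesis, had −0.94, −1.03 and −1.16 in BS, against 1.56, 1.64 and 1.53 in CN (−2.62 ± 0.12), and SBE2.2, a starch branching enzyme, had −1.33, −1.38 and −1.36 in BS, against 1.52, 1.54 and 1.58 in CN (−2.90 ± 0.11). BRL3, a receptor kinase close to the brassinosteroid receptor, was higher by 2.72 ± 0.075. Their lists moved in both directions, with 5 of 37 higher and 5 lower for brassinosteroids and sterols and 6 of 17 higher and 3 lower for sucrose and starch. These counts depended on the scale, with 1 higher and 13 lower and 5 higher and 5 lower on the hybridization controls, and with 1 higher and 21 lower and 0 higher and 7 lower on the poly-A controls.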
